A study of Mus musculus with 11 samples.

Results

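The unfolded protein response and endoplasmic reticulum (ER)-associated degradation were represented by 32 genes of the 22243 genes in the deposited table. The genes were taken by symbol from a list chosen with earlier results of these data known. Repeated transcript entries were dropped and the values of the principal transcripts of each gene were summed. The 32 genes divide into 7 genes of the ATF4 arm, 14 genes of the XBP1 and ATF6 arm and 11 genes of the degradation arm. Of the 32 genes, 29 reached 1 TPM (a transcript level corrected for length and scaled to the library total) in at least 5 mice and were tested. Trib3, Chac1 and Derl3 stayed below that level and are described by their values.

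Polyadenylated RNA of the whole wall of the distal colon was measured in 5 Nrg4 knockout mice (KO, homozygous, genotype Nrg4-/-) and in 6 wild-type (WT) mice. Neuregulin-4, the product of Nrg4, is a growth factor that binds the receptor ErbB4. All mice were adults of 11 to 12 weeks that had shared cages with the other genotype since 9 weeks of age. Cage A held 2 KO and 2 WT mice (KO-1, KO-8, WT-5 and WT-7), cage B held 2 KO and 2 WT mice (KO-4, KO-9, WT-2 and WT-11), and cage C held 1 KO and 2 WT mice (KO-3, WT-6 and WT-10). The labels state that both sexes were used but give no sex for a mouse, and they give neither the strain nor the construction of the knockout allele. Each mouse is 1 library, so the spread between libraries is the spread between animals.

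Nrg4 itself was listed at 0 TPM in all 11 mice, KO and WT alike, so that it did not check the genotype labels. The listed TPM of a mouse summed to between 558446 and 770986, because the table holds principal transcripts only. Mitochondrially encoded genes took 19.0% to 24.7% of that sum in mice of cage A, 23.0% to 29.8% in those of B and 22.3% to 42.9% in those of C, with the highest share in KO-3. Eif2s3y, a Y-linked gene, stood between 21.5 and 31.8 TPM in the 4 mice of cage A and at most at 0.0523 TPM in the 7 mice of cages B and C, so that cage A and sex cannot be told apart in these libraries. All 8 colon epithelium markers averaged at least 1 TPM, led by Krt8 and Krt19, and their summed level ranged from 4956 to 7915 TPM in KO mice and from 5199 to 7228 TPM in WT mice. All 10 goblet cell markers did so too, led by Zg16 and Tff3, with sums of 4854 to 12412 TPM in KO mice and 5754 to 11036 TPM in WT mice. Of 11 listed plasma cell markers, 8 did, led by Igkc and Iglc1, with sums of 617 to 1990 TPM in KO mice and 386 to 1740 TPM in WT mice. None of 8 squamous epithelium markers reached an average of 1 TPM, and of 7 pancreas markers in the table only Cela1 did, with Pnlip and Cpa1 at 0 in every mouse.

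As background, proteins that enter the ER are folded there with the help of chaperones and disulfide isomerases, and a build-up of unfolded protein is sensed by PERK, IRE1 and ATF6 in the ER membrane. PERK slows translation and favours synthesis of the transcription factor ATF4, IRE1 splices the Xbp1 messenger RNA, and ATF6 is released as a transcription factor after cleavage in the Golgi. XBP1 and ATF6 raise chaperones and degradation genes, and proteins that fail to fold are drawn back into the cytosol, ubiquitinated and degraded. In the colon the load is heavy in goblet cells, which make mucins, and in plasma cells, which secrete antibody. The values here are messenger RNA levels per gene and do not measure Xbp1 splicing, ATF6 cleavage or phosphorylation.

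The design asks first whether loss of Nrg4 altered these genes. None of the 29 tested genes passed the test for a difference between KO and WT colon. The ranges of KO and WT mice overlapped in all 29. The share of all genes with such an overlap was not counted, so the overlap is a description and not a trait of the set. In limma's fit with cage as a term, 0 of the 29 passed a false discovery rate (FDR) of 0.05 in either direction. Over all 10756 genes tested 4 passed (0.0372%), 1 higher in KO (0.0093%) and 3 lower in KO (0.0279%). At an unadjusted p below 0.05 there were 0 of the 29 genes, against 3.1% of all genes. Of the 29 genes 12 had a positive log2 fold change (KO over WT), and 46.8% of all genes did.

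The fits bounded most differences, in the set and over all genes. The log2 fold change lay within 0.2 of 0 for 26 of the 29 genes, and Manf, Syvn1 and Ube2j2 were the exceptions. For 28 of the 29 genes the 95% interval lay within 1 of 0 on the log2 scale. That is within a 2-fold change either way, and it held for 9502 of all 10756 genes tested. The interval lay within 0.5 for 21 of the 29. The shares of all genes with an interval within 0.5 or a log2 fold change within 0.2 were not counted. Ube2j2 was the gene outside the wider bound. The median log2 fold change was -0.11 over the 5 tested genes of the ATF4 arm, -0.00 over the 14 of the XBP1 and ATF6 arm and -0.03 over the 10 of the degradation arm, against -0.01 over all genes tested. In bulk tissue, fewer cells of a type and less RNA per cell cannot be told apart, which holds for every level below.

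**Figure D1:**
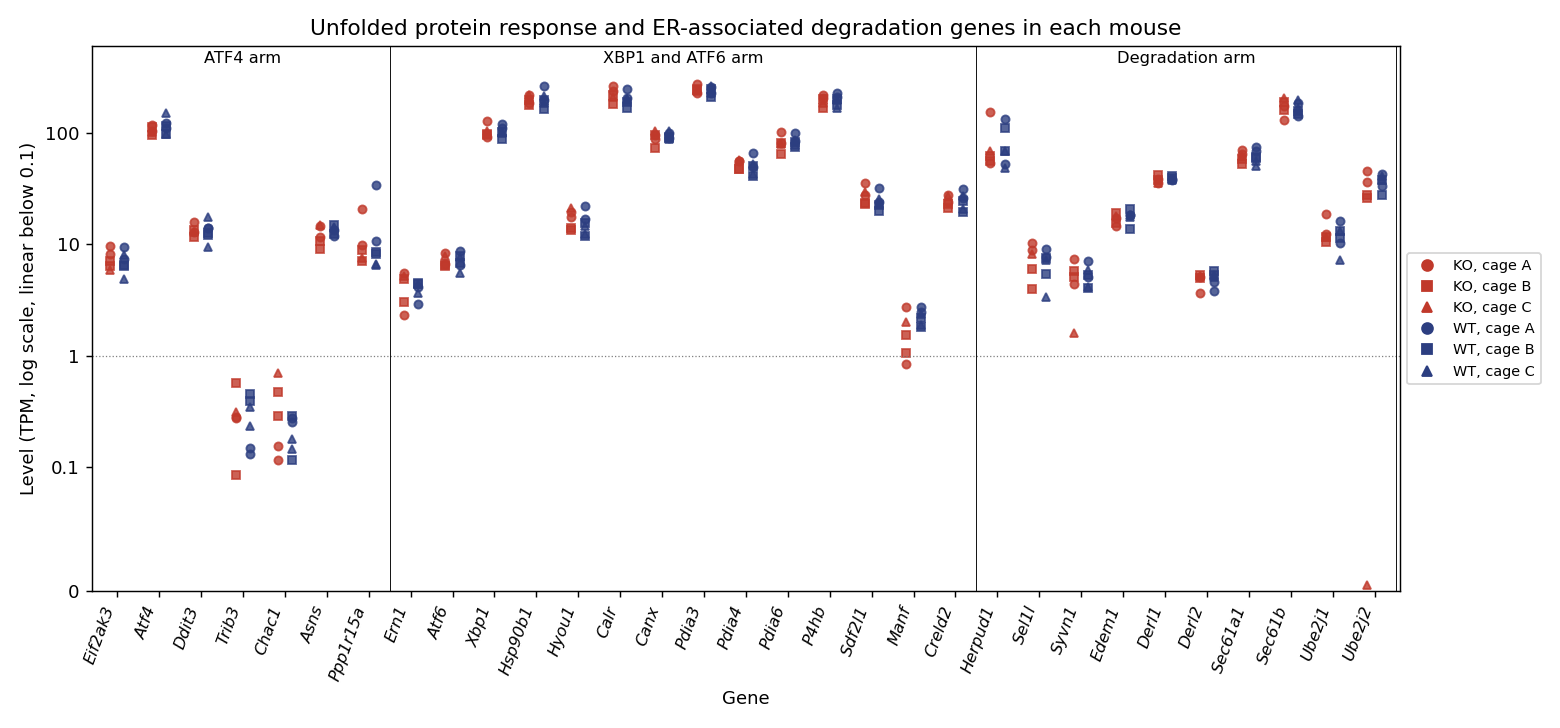
Level of each gene in each mouse, in TPM on a log axis that is linear below 0.1, with KO mice in red to the left of WT mice in blue and a symbol for each cage. KO and WT points overlap for every gene drawn, the dotted line marks 1 TPM, Derl3 (at most 0.01 TPM) is not drawn, and the lone red triangle at the bottom right is Ube2j2 in KO-3.

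The set spanned a wide range of levels. In mean TPM over the 11 mice, 7 of the tested genes stood at or above 100, 15 between 10 and 100 and 7 below 10. Pdia3 led with 241 TPM, followed by Calr with 211 TPM, Hsp90b1 with 201 TPM and P4hb with 196 TPM, which are all folding factors of the ER lumen. The sensors stood far lower, with 7.25 TPM for Eif2ak3, 7.15 TPM for Atf6 and 4.07 TPM for Ern1. Within a gene the mice were close together: the highest mouse was below 2 times the lowest in 21 of the 29 genes.

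The ATF4 arm starts with Eif2ak3, which encodes PERK. It had 8.23, 9.61, 7.09, 6.44 and 5.88 TPM in KO-1, KO-8, KO-4, KO-9 and KO-3, and a lowest, median and highest value of 4.84, 6.92 and 9.47 TPM in WT mice. The highest mouse of each genotype was in cage A, and the groups overlapped over most of their range. The log2 fold change was 0.04 ± 0.14 (SE).

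Atf4, on chromosome 15 from 80255184 to 80257541, encodes the transcription factor of the integrated stress response. In the same order of KO mice it had 105, 116, 95.2, 112 and 101 TPM, against 98.0, 112 and 151 TPM in WT mice (lowest, median, highest). The KO values all lay below the highest WT value, that of WT-10, and within the range of the other WT mice apart from KO-4. Its log2 fold change was -0.11 ± 0.12, with a 95% interval of -0.37 to 0.15. PERK acts on ATF4 mainly through translation, which these levels do not show.

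Ddit3 encodes CHOP, a transcription factor downstream of ATF4 that is tied to cell death under lasting ER stress. It had 15.9, 12.8, 13.3, 11.5 and 12.9 TPM in KO mice and 9.41, 13.2 and 17.6 TPM in WT mice (lowest, median, highest), and the WT mice spanned all KO values. Its log2 fold change was 0.01 ± 0.15. Asns, asparagine synthetase and an amino acid response gene, had 11.5, 14.5, 10.7, 9.13 and 14.8 TPM in KO mice against 11.9, 13.7 and 14.99 TPM in WT mice. KO-4, KO-9 and KO-1 stood below every WT mouse and the other KO mice did not, with a log2 fold change of -0.14 ± 0.12.

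Trib3, a pseudokinase induced by CHOP, and Chac1, a glutathione-degrading enzyme, are induced by ATF4 and CHOP under strong ER stress. Trib3 stood between 0.0938 and 0.571 TPM in KO mice and between 0.131 and 0.457 TPM in WT mice. Chac1 stood between 0.116 and 0.700 TPM in KO mice and between 0.116 and 0.287 TPM in WT mice. No mouse reached 1 TPM for either gene. KO-3 had the highest Chac1 level and KO-9 the highest Trib3 level.

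Ppp1r15a, on chromosome 7 from 45522916 to 45526268, encodes GADD34, the phosphatase subunit that reverses the translational block set by PERK. Its levels were 9.85, 20.7, 8.82, 7.15 and 7.47 TPM in KO mice and 6.49, 8.35 and 34.0 TPM in WT mice (lowest, median, highest). KO-8 and WT-5, both of cage A, were the highest of their genotypes, and all other mice lay between 6.49 and 10.6 TPM. The mean was 10.8 ± 5.62 TPM in KO mice (SD, n = 5) and 12.4 ± 10.7 TPM in WT mice (SD, n = 6), with a log2 fold change of -0.13 ± 0.29.

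The XBP1 and ATF6 arm starts with its sensors. Ern1 encodes IRE1 alpha, the kinase and nuclease that splices Xbp1, and had 5.51, 2.34, 4.86, 3.04 and 5.18 TPM in KO mice against 2.91, 4.24 and 4.46 TPM in WT mice (lowest, median, highest). The KO mice spread more widely than the WT mice on both sides, with a log2 fold change of 0.04 ± 0.21. Atf6 had 8.35, 6.59, 6.58, 6.33 and 7.80 TPM in KO mice against 5.53, 7.25 and 8.65 TPM in WT mice. The WT mice spanned all KO values, and the log2 fold change was -0.01 ± 0.13.

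Xbp1, the transcription factor that drives secretory cell differentiation, had 91.5, 128, 98.4, 96.4 and 104 TPM in KO mice, against 87.4, 101 and 119 TPM in WT mice (lowest, median, highest). KO-8 was the highest of all mice and WT-5 came next. The means were 104 ± 14.2 TPM in KO mice (SD, n = 5) and 103 ± 10.8 TPM in WT mice (SD, n = 6). The log2 fold change was 0.00 ± 0.09, with a 95% interval of -0.21 to 0.21.

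Many targets of XBP1 and ATF6 carry short promoter elements to which these factors bind with partners. The ER stress response element (ERSE) is CCAAT, then 9 bases, then CCACG, and it was searched on both strands from 250 bases before to 50 bases after the annotated start. It was found in 7 of 29 promoters (24.1%) of the 27 genes of the set that had an entry, and in 39 of all 32851 promoters (0.119%). In the XBP1 and ATF6 arm it was found in 5 of 11 promoters (45.5%), in the degradation arm in 2 of 11 and in the ATF4 arm in 0 of 7. Those of the folding factors are shown because they are the known targets of XBP1 and ATF6 in the set. Each is written 5′ to 3′ on the strand of the gene with 15 bases on either side and the element in capitals, and CGTGG before ATTGG is the element read on the opposite strand. The sequences are from RefSeq on GRCm38.p6, the assembly of mm10, and the coordinates give the strand of the gene.
Hsp90b1, chr10:86705623-86705671, minus strand: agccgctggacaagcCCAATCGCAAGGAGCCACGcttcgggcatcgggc
Hsp90b1, chr10:86705518-86705566, minus strand: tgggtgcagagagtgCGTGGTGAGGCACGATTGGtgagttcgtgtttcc
Calr, chr8:84847060-84847108, minus strand: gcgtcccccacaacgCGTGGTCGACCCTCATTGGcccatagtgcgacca
Canx, chr11:50325785-50325833, minus strand: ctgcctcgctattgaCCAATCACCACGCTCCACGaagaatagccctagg
Pdia6, chr12:17266476-17266524, plus strand: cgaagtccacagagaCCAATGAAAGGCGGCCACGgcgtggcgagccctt
Creld2, chr15:88819505-88819553, plus strand: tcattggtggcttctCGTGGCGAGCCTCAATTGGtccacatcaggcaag

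Hsp90b1 carries a pair of the elements, whose first bases lie 212 and 107 bases before the start. The first base lies 162 bases before the start in Calr, 145 in Canx, 126 in Creld2 and 98 in Pdia6. The spacers between the shared blocks differ in every one of these sequences. Atf6, Hyou1, Manf, Derl1 and Sec61a1 had no matching promoter entry. A match is a stretch of letters and was not tested as a binding site.

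Among the chaperones, Hsp90b1 encodes GRP94, the HSP90 of the ER, and lies on chromosome 10 from 86690209 to 86705509. Its levels were 186, 220.0, 196, 176 and 218 TPM in KO-1, KO-8, KO-4, KO-9 and KO-3, against 162, 197 and 260.0 TPM in WT mice (lowest, median, highest). The highest value was in WT-5 and the lowest in WT-2, with the KO mice between them. Its log2 fold change was -0.01 ± 0.11, with a 95% interval of -0.24 to 0.23.

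Calr and Canx encode calreticulin and calnexin, which hold newly made glycoproteins until they fold. Calr had 237, 265, 183, 218 and 211 TPM in KO mice and 168, 201 and 249 TPM in WT mice (lowest, median, highest). Its mean of 223 ± 30.6 TPM in KO mice (SD, n = 5) stood above the 202 ± 26.6 TPM of WT mice (SD, n = 6), with a log2 fold change of 0.14 ± 0.08 (limma unadjusted p = 0.124, FDR 1.00). The difference of means on the log2 scale in cages A, B and C was 0.15, 0.17 and 0.07, which keeps 1 direction but did not exceed the spread between mice. Canx had 88.6, 94.6, 95.6, 73.6 and 105 TPM in KO mice against 87.7, 90.6 and 103 TPM in WT mice, and its log2 fold change was -0.03 ± 0.09.

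Sdf2l1 encodes a cofactor of ER chaperone complexes. It had 27.9, 35.2, 23.2, 23.5 and 29.2 TPM in KO mice and 20.1, 23.5 and 32.2 TPM in WT mice (lowest, median, highest). The mean was 27.8 ± 4.92 TPM in KO mice (SD, n = 5) and 24.5 ± 4.16 TPM in WT mice (SD, n = 6). Its log2 fold change of 0.18 ± 0.10 was the highest of the 29 genes, with an unadjusted limma p of 0.101 and FDR 1.00. By cage the difference came to 0.17 (A), 0.13 (B) and 0.27 (C), and the ranges of the genotypes overlapped. Hyou1, which encodes the HSP110-like chaperone GRP170, had 19.6, 17.7, 13.9, 13.3 and 21.1 TPM in KO mice against 12.0, 15.05 and 22.1 TPM in WT mice. Its log2 fold change was 0.14 ± 0.14, and most of it came from cage C, where KO-3 stood 0.63 above the mean of its WT cage mates on the log2 scale, against -0.05 for A and 0.00 for B.

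The disulfide isomerases were even across the mice. Pdia3, which works with calnexin and calreticulin, had 227, 274, 240.0, 245 and 238 TPM in KO mice against 209.5, 237 and 262 TPM in WT mice (lowest, median, highest). P4hb, the classical protein disulfide isomerase, had 206, 219, 201, 166 and 185 TPM in KO mice against 166, 197 and 227 TPM in WT mice. Pdia4 ranged from 47.4 to 56.8 TPM in KO mice and from 41.2 to 65.3 TPM in WT mice. Pdia6, which also damps the sensors, ranged from 63.8 to 101 TPM in KO mice and from 73.8 to 98.8 TPM in WT mice. In each of these 4 genes the highest mouse stood below 1.6 times the lowest, and the log2 fold changes were 0.04 ± 0.08 for Pdia3, -0.02 ± 0.08 for P4hb, 0.08 ± 0.10 for Pdia4 and -0.06 ± 0.10 for Pdia6.

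Manf and Creld2 encode secreted ER stress-inducible proteins. Manf had 0.844, 2.77, 1.07, 1.54 and 2.01 TPM in KO mice against 1.82, 2.27 and 2.72 TPM in WT mice (lowest, median, highest). KO-1, KO-4 and KO-9 stood below every WT mouse, while KO-8 stood above all of them. The log2 fold change of -0.41 ± 0.23 (95% interval -0.93 to 0.11, limma FDR 1.00) rests on levels near the filter and on 1 of the 7 annotated transcripts of the gene, the only one the table lists. Creld2 had 24.1, 27.5, 21.3, 23.0 and 27.1 TPM in KO mice against 19.6, 25.3 and 31.5 TPM in WT mice, with a log2 fold change of -0.00 ± 0.11.

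**Figure D2:**
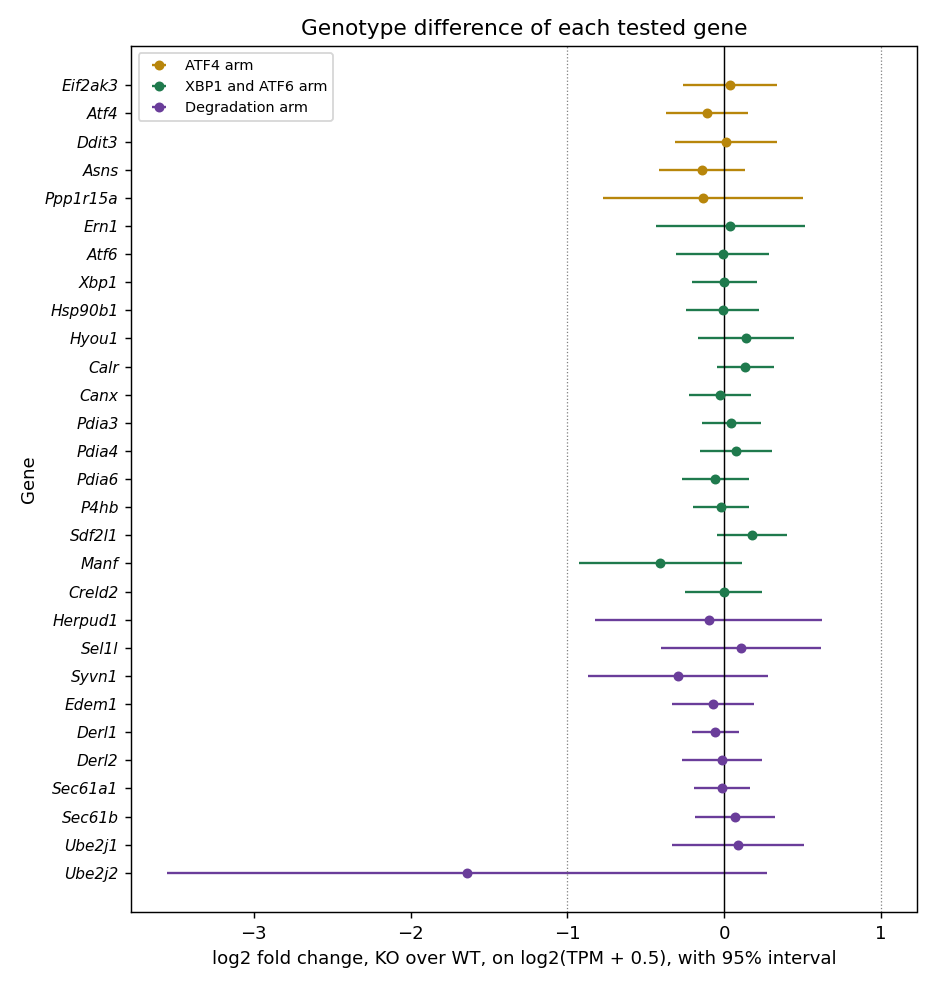
Log2 fold change of KO over WT for each of the 29 tested genes, fitted with cage as a term on log2(TPM + 0.5), with bars for the 95% interval and dotted lines at -1 and 1. Every interval includes 0, and only that of Ube2j2 passes the dotted lines.

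In the degradation arm, promoter matches stood before Syvn1 and Derl3 (ERSE), Herpud1 (ERSE-II, which is ATTGG, then 1 base, then CCACG) and Ube2j1 (the UPRE core, which is TGACG followed by TGG). In all promoters ERSE-II was found in 12 (0.0365%) and the UPRE core in 222 (0.676%). CCACG is a part of ERSE and ERSE-II, and it also opens the reversed UPRE core, but no 2 matches in the set overlapped. The amino acid response motif, TGATG, then any base, then AAT, was found in 0 promoters of the set and in 317 of all promoters (0.965%). The search fixed the last base as T, so the 0 holds for that form only. Asns carries a stretch that differs from the motif in the last base alone, and so do Chac1 and Herpud1 on the opposite strand. Stretches with another last base were not counted, in the set or over all promoters. The matches of genes with measurable levels are shown in the same layout as above.
Syvn1, chr19:6046517-6046565, plus strand: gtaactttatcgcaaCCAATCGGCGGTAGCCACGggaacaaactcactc
Herpud1, chr8:94386362-94386402, plus strand: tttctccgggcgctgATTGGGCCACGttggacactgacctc

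Herpud1, on chromosome 8 from 94386438 to 94395377, encodes a membrane scaffold of the degradation complex that is strongly induced by ER stress. Its levels were 53.5, 153, 56.2, 62.0 and 69.2 TPM in KO mice, against 48.1, 68.6 and 134 TPM in WT mice (lowest, median, highest). KO-8 and WT-5 stood highest, WT-2 followed at 109.8 TPM, and the other 8 mice lay between 48.1 and 69.2 TPM. The means were 78.9 ± 42.1 TPM in KO mice (SD, n = 5) and 80.2 ± 34.1 TPM in WT mice (SD, n = 6), with a log2 fold change of -0.10 ± 0.33.

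Sel1l and Syvn1 encode the adaptor and the ubiquitin ligase HRD1 at the core of the complex. Sel1l had 8.86, 10.2, 6.03, 3.96 and 8.26 TPM in KO mice and 3.35, 7.37 and 9.08 TPM in WT mice (lowest, median, highest), with a log2 fold change of 0.11 ± 0.23. Syvn1 had 7.35, 4.39, 5.77, 5.14 and 1.62 TPM in KO mice and 4.09, 5.22 and 7.02 TPM in WT mice. KO-3 alone stood below the WT range for Syvn1. Over all mice the log2 fold change was -0.29 ± 0.26, and by cage it was -0.07 (A), 0.20 (B) and -1.37 (C), where KO-3 is the only KO mouse (limma p for genotype by cage 0.0267, FDR 1.00).

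Edem1, a lectin that recognises mannose-trimmed glycoproteins, had 17.1, 14.7, 19.0, 15.5 and 17.9 TPM in KO mice and 13.7, 18.4 and 20.7 TPM in WT mice (lowest, median, highest). The derlins are membrane proteins of the exit channel. Derl1 varied least of the 29 genes, with 35.1 to 41.8 TPM in KO mice and 37.6 to 41.3 TPM in WT mice, the highest 1.19 times the lowest. Derl2 ranged from 3.67 to 5.33 TPM in KO mice and from 3.82 to 5.78 TPM in WT mice. Derl3, which is known from secretory cells such as those of the pancreas, was listed at no more than 0.01 TPM in any mouse. The log2 fold changes were -0.07 ± 0.12 for Edem1, -0.06 ± 0.07 for Derl1 and -0.01 ± 0.11 for Derl2.

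Sec61a1 and Sec61b encode subunits of the translocon, the channel through which proteins enter the ER. Sec61a1 had 63.8, 70.3, 58.6, 52.7 and 62.0 TPM in KO mice and 50.5, 59.7 and 74.0 TPM in WT mice (lowest, median, highest), with a log2 fold change of -0.01 ± 0.08. Sec61b had 129, 173, 187, 161 and 204 TPM in KO mice and 139.9, 162 and 198 TPM in WT mice, with a log2 fold change of 0.07 ± 0.12. Unlike Sec61a1, Sec61b was lowest in a mouse of cage A, KO-1, and highest in a mouse of cage C, KO-3.

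Ube2j1 and Ube2j2 encode ubiquitin-conjugating enzymes anchored in the ER membrane. The UPRE core of Ube2j1 is shown with its reverse in capitals.
Ube2j1, chr4:33031297-33031334, plus strand: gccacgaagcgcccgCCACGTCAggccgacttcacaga
Ube2j1 had 12.3, 18.7, 10.6, 11.5 and 11.5 TPM in KO mice and 7.16, 12.2 and 16.1 TPM in WT mice (lowest, median, highest). KO-8 and WT-5 were again the highest mice, and the log2 fold change was 0.09 ± 0.19.

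Ube2j2, on chromosome 4 from 155943831 to 155959604 on the plus strand, was the exception of the set, through 1 mouse. It had 36.2, 45.5, 27.4 and 26.1 TPM in KO-1, KO-8, KO-4 and KO-9 but 0.00494 TPM in KO-3, against 27.7, 37.6 and 43.1 TPM in WT mice (lowest, median, highest). The other 4 KO mice lay within or close to the WT range, and KO-3 stood apart from all 10 other mice. The fitted log2 fold change of -1.64 ± 0.86 (95% interval -3.55 to 0.27, limma FDR 1.00) was -0.09 without KO-3.

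A genotype difference that varied by cage followed the same mouse. On the log2 scale it was 0.09 (A), -0.27 (B) and -6.30 (C), and limma's F test of genotype by cage gave 238 with an FDR of 0.000671. It was 1 of the 29 genes past the threshold in that test, against 0.0186% of all genes, and 2 of the 29 had an unadjusted p below 0.05, against 3.97%. KO-3 is the only KO mouse of cage C, so the call cannot be told apart from that 1 animal. Without KO-3 the F value was 1.63, but it then compares the genotype difference between cages A and B only. That fit therefore cannot check the call.

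All listed transcripts of Ube2j2 were near 0 in KO-3. The main one stood at 0.00410 TPM there and between 23.5 and 45.5 TPM in the other 10 mice, and the other 2 stood at 0.000844 and 0 TPM in KO-3. The table lists 3 of the 13 transcripts that the annotation gives the gene, and reads of the other transcripts were not analysed here. Among all genes in the table, Ube2j2 was the only one below 0.1 TPM in 1 mouse and at or above 10 TPM in each of the 10 others. KO-3 also had the highest mitochondrial share, 42.9%, and the part of that in this value was not tested.

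**Figure D3:**
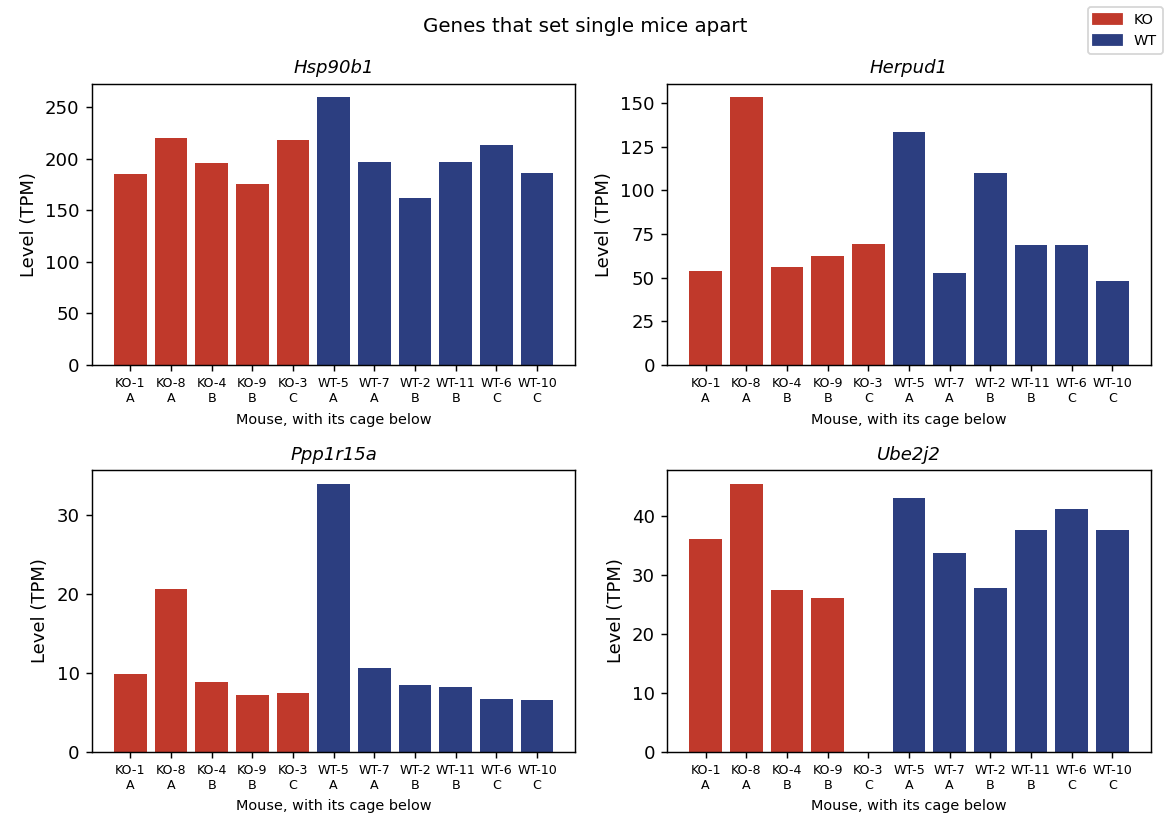
Level in TPM of Hsp90b1, Herpud1, Ppp1r15a and Ube2j2 in each mouse, with KO mice in red to the left of WT mice in blue and the cage of each mouse under its name. Herpud1 and Ppp1r15a are highest in KO-8 and WT-5 of cage A, and Ube2j2 is at 0.00494 TPM in KO-3.

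The cages were compared next, because genes of the set stood high in cage A of either genotype. In limma's F test on cage, 0 of the 29 genes passed an FDR of 0.05, and the same was true of all genes tested (0 of 10756, 0%). At an unadjusted p below 0.05 there were 6 of the 29 genes, against 12.1% of all genes. These were Eif2ak3 and Ppp1r15a of the ATF4 arm, Hyou1, Calr and Sdf2l1 of the XBP1 and ATF6 arm, and Sec61a1. The difference of cage A from the mean of cages B and C was 1.11 ± 0.30 for Ppp1r15a, 0.41 ± 0.14 for Eif2ak3, 0.35 ± 0.14 for Hyou1, 0.28 ± 0.10 for Sdf2l1, 0.28 ± 0.08 for Sec61a1 and 0.27 ± 0.08 for Calr on the log2 scale. The smallest FDR for cage among the 29 was 0.338.

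By sign alone, cage A stood above cages B and C in 23 of the 29 genes, against 53.6% of all genes, and in 13 of the 14 genes of the XBP1 and ATF6 arm. Only Ern1 of that arm stood lower in cage A. Without KO-8 and WT-5 the count was 19 of 29, against 53.7% of all genes. The number of genes of the set at an unadjusted cage p below 0.05 was then 1, against 7.87% of all genes. That number was 3 without WT-2 (11.8% of all genes), 3 without WT-5 (8.29%) and 11 without cage C (12.9%). The cages differ in the Y-linked gene and in mitochondrial share as given above, and their part in the cage differences was not tested.

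KO-8 and WT-5 stood highest within cage A in many of the genes. In 14 of the 29 genes these mice held both of the highest places, against 10.4% of all 10756 genes, and in 8 of the 14 genes of the XBP1 and ATF6 arm. The pair was noticed after the values were seen, so the counts are a description. The pattern depended on the scaling of the columns. With median-of-ratios scaling the counts were 12 of 29 and 6 of 14, against 9.3% of all genes. Scaled to nuclear TPM they were 10 of 29 and 5 of 14, against 7.61%. KO-8 was the highest mouse in 11 of the 29 genes as deposited, against 12.3% of all genes. Scaled to nuclear TPM it was highest in 3 of 29 and in 0 of the 14 genes of the XBP1 and ATF6 arm, against 5.28% of all genes. WT-5 was the highest in 8 of the 29 genes as deposited, against 14.7% of all genes. Scaled to nuclear TPM it was highest in 16 of 29, against 19.3% of all genes. As deposited, the 14 genes were Xbp1, Hsp90b1, Calr, Pdia6, P4hb, Sdf2l1, Manf and Creld2 of the XBP1 and ATF6 arm, Eif2ak3 and Ppp1r15a of the ATF4 arm, and Herpud1, Sec61a1, Ube2j1 and Ube2j2 of the degradation arm. Ern1 and Derl2 went the other way and were lowest in these mice.

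The mates of the same cage and genotype stood apart from them. Herpud1 was 2.87 times higher in KO-8 than in KO-1 and 2.55 times higher in WT-5 than in WT-7, and Ppp1r15a was 2.10 and 3.20 times higher. Both ratios were above 1 in 19 of the 29 genes, against 31.0% of all genes, and in 11 of the 14 genes of the XBP1 and ATF6 arm. These counts describe a pair picked after the values were seen. Among the folding factors the ratios were 3.28 and 1.09 for Manf, which is near the filter. They were 1.26 and 1.35 for Sdf2l1, 1.18 and 1.32 for Hsp90b1 and 1.00 and 1.34 for Pdia4. Only Hyou1 of the folding factors had a ratio below 1, with 0.90 and 1.32. Summed goblet markers did not set both mice apart, with 12412 TPM in KO-8 and 5754 TPM in WT-5, the highest KO value and the lowest WT value. That sum is led by Zg16 and Tff3. Atoh1, a member of the same list picked after its values were seen, did set both mice apart. It had 3.40 TPM in KO-8 and 1.16 TPM in WT-5, against 18.5 to 30.8 TPM in the 9 other mice. The other goblet markers are not given by mouse here. Summed plasma cell markers were 999 TPM in KO-8 and 1499 TPM in WT-5, inside the range of the other mice, and the mitochondrial share was 20.7% and 24.7%. KO-8 had the highest sum of all 11 mice for colon epithelium markers (7915 TPM in KO-8, 6772 TPM in WT-5) and for enteroendocrine markers (705 and 556 TPM). WT-5 had the highest sum for smooth muscle markers (3780 TPM in KO-8, 5238 TPM in WT-5) and for fibroblast markers (145 and 178 TPM). Summed absorptive colonocyte markers, led by Car1 and Car4, were the lowest of each genotype in these mice, with 4041 TPM in KO-8 and 3729 TPM in WT-5. WT-2 lay between them with 3768 TPM, and the remaining mice had 4281 to 7522 TPM. The part of these values in the pattern was not tested.

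**Figure D4:**
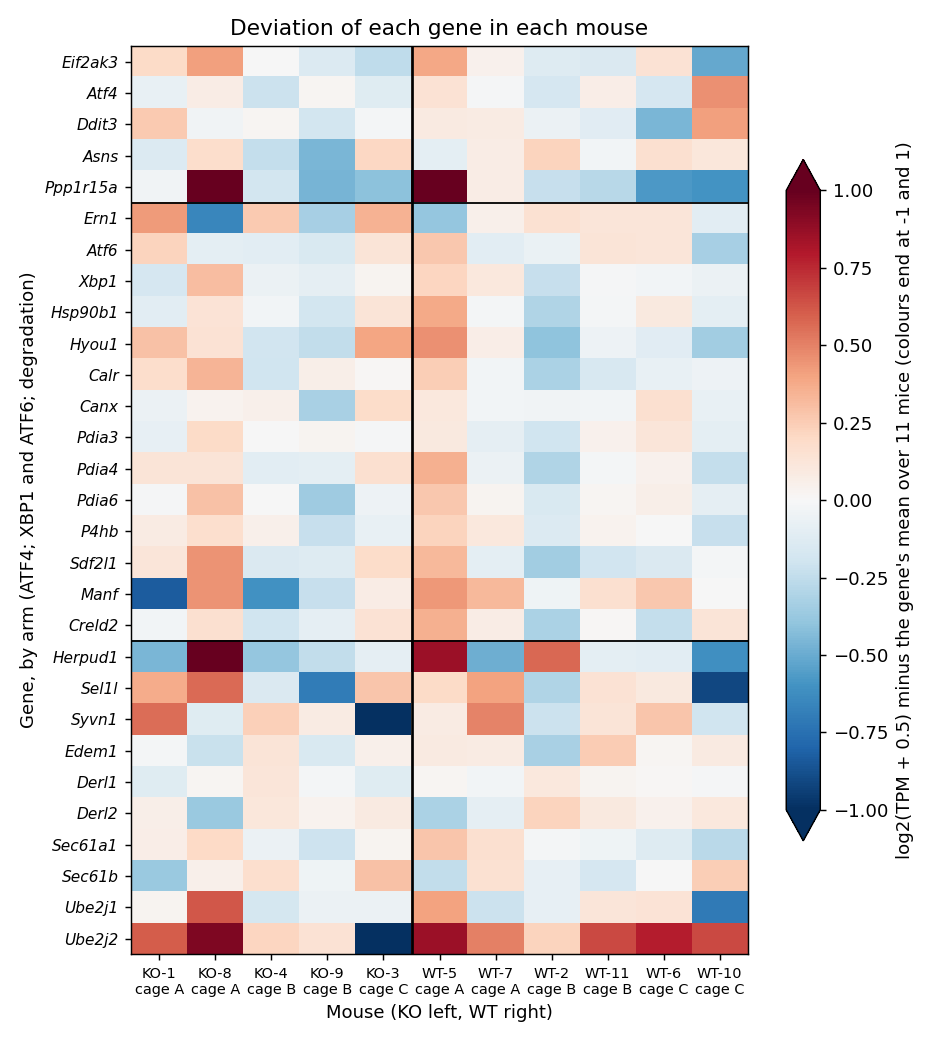
Deviation of each tested gene in each mouse, as deposited, from the mean of the gene over 11 mice, on log2(TPM + 0.5), with KO mice left of WT mice and red for higher. The columns of KO-8 and WT-5 are red over most genes, and that of WT-2 is blue over most of the middle block. Ube2j2 and Syvn1 in KO-3 share the darkest blue, because both lie past -1, where the colours end.

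The mean deviation over an arm was also taken by mouse, on the values as deposited. For the XBP1 and ATF6 arm it was 0.01, 0.15, -0.09, -0.17 and 0.12 on the log2 scale in KO-1, KO-8, KO-4, KO-9 and KO-3, and -0.19 to 0.24 in WT mice, highest in WT-5 and lowest in WT-2. Scaled to nuclear TPM the KO values were 0.08, 0.06, -0.07, -0.21 and 0.22, so that KO-8 then stood below KO-1 and KO-3, and WT-5 was highest at 0.30. As deposited, its group mean was 0.00 ± 0.13 in KO mice (SD, n = 5) and -0.00 ± 0.15 in WT mice (SD, n = 6). For the ATF4 arm it was 0.04, 0.32, -0.12, -0.24 and -0.12 in KO mice and -0.18 to 0.45 in WT mice, again highest in WT-5. That mean is over 5 genes, and its values in WT-5 and KO-8 hold Ppp1r15a. Ppp1r15a had 34.0 TPM in WT-5 and 20.7 TPM in KO-8, against at most 10.6 TPM in the other mice. For the degradation arm it was 0.07, 0.27, 0.02, -0.12 and -0.64 in KO mice and -0.16 to 0.22 in WT mice, and the value of -0.64 in KO-3 holds Ube2j2. WT-2 was the lowest mouse in 8 of the 14 genes of the XBP1 and ATF6 arm, against 8.16% of all genes. Scaled to nuclear TPM, WT-2 and WT-10 were each the lowest in 5 of the 14, against 6.5% and 21.2% of all genes.

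Wider lists of the same pathways gave the same absence of calls for genotype. Of 28 tested genes of the ATF4 programme (amino acid transport, serine synthesis and transfer RNA charging among them), 0 passed in either direction, 11 had a positive and 17 a negative log2 fold change, and the median was -0.03. Of 43 tested further genes of ER folding, translocation and glycosylation, 0 passed, 24 were positive and 19 negative, and the median was 0.01. Of 28 tested further degradation genes, 0 passed, 10 were positive and 18 negative, and the median was -0.02. Over all genes tested 46.8% were positive and the median was -0.01.

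The 2 genes with the smallest p of each list are given, which are not always those with the largest differences. Tars, a transfer RNA ligase for threonine, had 7.29 to 14.7 TPM in KO mice and 11.7 to 15.03 TPM in WT mice, with a log2 fold change of -0.25 ± 0.11, and Slc3a2, the heavy chain of amino acid transporters, one of -0.54 ± 0.26. Txndc5, a disulfide isomerase, had 11.4 to 21.9 TPM in KO mice and 12.995 to 36.2 TPM in WT mice, with a log2 fold change of -0.56 ± 0.26, and Rpn2, a subunit of the oligosaccharyltransferase, one of 0.33 ± 0.17. Tmub1, a membrane protein of the degradation complex, had 8.76 to 18.1 TPM in KO mice and 13.4 to 18.8 TPM in WT mice, with a log2 fold change of -0.34 ± 0.12 (limma unadjusted p = 0.0166), and Selenos, a selenoprotein that recruits the p97 ATPase, one of -0.14 ± 0.12. The ranges of the genotypes overlapped for Tars, Txndc5 and Tmub1, and all 6 genes had a limma FDR of 1.00. Cage A stood above cages B and C in 22 of 28 (ATF4 list), 36 of 43 (folding list) and 13 of 28 genes (degradation list). These shares are 78.6%, 83.7% and 46.4%, against 53.6% of all genes.

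The authors' deposited table, which holds their own comparison per transcript, listed a p-value for 33 transcripts of the set. None was below 0.05 in the authors' deposited table, and every q-value there was 1. Of all 14763 transcripts with a p-value in that table, 5 had a q-value below 0.05, so few calls were there for any set. The share of all transcripts with a p-value below 0.05 there was not counted. The smallest p-values in the authors' deposited table were 0.0826 for Ube2j2, 0.135 for Manf and 0.252 for Sdf2l1.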

How the data were processed

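Per the labels' protocols, RNA of full-thickness distal colon was read as stranded, single-end libraries. Per the submitters' processing notes, the authors used CASAVA, kallisto and sleuth with mm10; no version and no rescaling of the columns is stated. The deposited values are TPM of APPRIS principal transcripts, per the file headers, with the authors' p-value and q-value, a deposited log2 ratio, a deposited natural log mean and a deposited test score per transcript. TPM keeps no depth, so no counting interval is given.

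Of 29213 entries 405 were repeats and were dropped, leaving 28808 transcripts. TPM were summed per gene. Genes that reached 1 TPM in 5 or more mice (10756) were tested with limma 3.58.1 (R 4.3.3, mean-variance trend) on log2(TPM + 0.5), a scale that understates changes of low genes, with genotype and cage as terms, F tests on cage and on genotype by cage, and Benjamini-Hochberg adjustment over all of them at 0.05. The script was tested on simulated data. Values after ± are SE for log2 fold changes and SD for means. An arm's mean deviation averages log2(TPM + 0.5) minus the gene's mean. Python 3.11.15 with pandas 2.3.3 was used for tables. Alternatives changed the pseudocount, filter, scaling, trend, cage term, transcript choice and mice. Gene coordinates are from GENCODE M21 and promoters from RefSeq, where 22 of 29 entries matched a transcript of their gene after the start.

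The genes and lists were chosen with earlier results of these data known. All 32 genes of the set are named, with the 2 smallest genotype p of each wider list and the 2 highest genes of a marker list. Protein sequences were not analysed here.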

Additional observations from a re-analysis of the deposited data

Results flagged for a closer look

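Within a genotype, a mouse was singled out where its gap to the nearest other mouse took up a large share of the range of the group (Dixon's criterion). Of 64 groups examined, for the 29 tested genes and the arm means, 7 met it, and chance alone meets it in about 1 of 20 groups. Among KO mice these were KO-8 for Herpud1 (153 TPM, next KO-3 with 69.2 TPM), Ube2j1 (18.7 TPM, next KO-1 with 12.3 TPM) and Derl2 (3.67 TPM, next KO-9 with 5.01 TPM), and KO-3 for Ube2j2 (0.00494 TPM, next KO-9 with 26.1 TPM). Among WT mice these were WT-5 for Ppp1r15a (34.0 TPM, next WT-7 with 10.6 TPM) and WT-2 for Derl1 (41.3 TPM, next WT-11 with 39.0 TPM). WT-5 also met it for the mean deviation of the ATF4 arm (0.45, next WT-7 with 0.05), which includes Ppp1r15a. The genotype difference of Ube2j2 depended on cage in limma's F test, with -6.30 on the log2 scale in cage C against -0.27 in cage B, and cage C has KO-3 as its only KO mouse.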

How the results depend on the processing

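In 21 alternatives, 11 of them leaving out a mouse, 0 genes of the set passed for genotype or for cage, and 0 of 609 fold changes passed. The number of all genes called for genotype was 4, against 2 without the filter, 1 without cage C and 2 without KO-8 and WT-5 (an alternative added after seeing the data). It ranged from 2 to 4 with a mouse left out, and was 2 without KO-1, KO-3, KO-4, WT-11, WT-5 or WT-2. The 1 gene of the set called for genotype by cage, Ube2j2, gave 0 calls without cage C and 0 to 1 with a mouse left out, 0 of them without KO-3, where no KO mouse of cage C remains. The log2 fold change of Ube2j2 ranged from -2.21 with a pseudocount of 0.1 to -0.09 without KO-3. The medians of the arms and wider lists moved by less than the SD between mice of their mean deviation, which is another measure. That SD was 0.25 for the degradation arm and 0.22 for the ATF4 arm, a wide bound beside their medians of -0.03 and -0.11. The sign of the log2 fold change held under every alternative for 11 of the 29 genes and changed under at least 1 for the other 18, none of which was called.

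No paired analysis was possible because mouse numbers are not shared between the genotypes. Depth is unknown, so precision at the levels of Trib3, Chac1 and Derl3 is unknown too. Each genotype has 1 or 2 mice per cage, sex is not given per mouse, and the table lists principal transcripts only.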

Other observations

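Genes related to the set were picked after their values were seen. Atoh1, the transcription factor that specifies secretory cells of the gut, is also among the goblet markers. It had 3.40 TPM in KO-8 and 1.16 TPM in WT-5, and 18.5 to 30.8 TPM in the 9 other mice. The sum of the goblet markers did not set both mice apart, with 12412 TPM in KO-8 and 5754 TPM in WT-5. Sesn2, a stress-inducible regulator of growth signalling and a target of ATF4, had 1.11 TPM in KO-8 and 1.07 TPM in WT-5, and 2.46 to 4.41 TPM in the 9 other mice. Atf3, an early stress-response transcription factor, had 22.6 TPM in KO-8 and 57.8 TPM in WT-5, and 6.01 to 23.5 TPM in the 9 other mice, so that WT-5 stood above all other mice and KO-8 within their range.

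Ern2 encodes IRE1 beta, the form of the sensor found in gut epithelium and goblet cells. It averaged 5.11 TPM over the 11 mice, with 3.51 to 7.83 TPM in KO mice and 3.88 to 6.11 TPM in WT mice, close to the 4.07 TPM of Ern1.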
